A study of Drosophila melanogaster with 6 samples.

Results

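Trypsins are serine proteases that cut proteins after lysine or arginine. They are made as inactive precursors and, in insects, are secreted by the midgut epithelium to digest dietary protein. The Drosophila midgut forms from endoderm during embryogenesis and turns to digestion in the feeding larva. Many of the fly's trypsin genes lie side by side, and several are near copies of each other. The genes described here are alphaTry, betaTry, epsilonTry, zetaTry, thetaTry and iotaTry, which were chosen by name as digestive trypsins of the midgut. Each was represented by 1 probe set, so the set holds 6 of 11983 genes, or 6 of 18769 tested probe sets, and each of its probe sets was paired with that gene alone.

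Whole embryos of stages 11 to 16 gave the RNA for 6 Affymetrix arrays, 1 per sample. In 3 samples a UAS-Sage transgene was switched on by tub-Gal4, a driver active in most cells, and 3 samples were wild type. The labels give Oregon R as the genetic background of both groups, and embryos of both were aged at the same temperature and sorted by machine before RNA was extracted. Sage is a bHLH factor, a DNA-binding regulator of transcription, that is normally made in the salivary gland of the embryo, and the comparison asks which genes respond when it is made throughout the embryo. The labels do not say that the replicates came from separate collections, so the p-values cover only the spread among these samples, which may be technical. The wild type samples are not described as carrying the driver, so effects of the driver and of the transgene cannot be told apart. Values are the authors' RMA signals on the log2 scale, where a difference of 1 is a doubling, and a gene is called where limma's p, adjusted over all tested probe sets, is under 0.05.

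The sage probe set read 12.17, 12.31 and 12.28 on the log2 scale in the Sage overexpression samples, against 7.68, 8.08 and 7.40 in wild type, as the labels imply. Pearson correlations across probe sets were between 0.989 and 0.996 within the Sage group, between 0.975 and 0.994 within wild type and between 0.960 and 0.983 across the groups. The polyA spike-ins, bacterial RNAs put in ahead of labelling, were lower on average in the Sage samples at all 24 probe sets that detect them (median log2 difference -1.65). For the housekeeping transcripts actin, GAPDH and eIF-4a the median was -1.29 over 6 probe sets at 5′ ends and -0.37 over 6 at 3′ ends. What part these differences between the groups had in the change of any trypsin was not tested.

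Of the 6 trypsins, alphaTry alone passed the test. It was 2.21-fold higher in the Sage embryos, and the other 5 were not called in either direction. betaTry had a smaller positive difference that missed the threshold, and epsilonTry, zetaTry and thetaTry had differences close to 0. thetaTry and iotaTry read within the range of control probe sets in both groups.

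The probe set of alphaTry, a trypsin gene in the middle of the cluster (1638196_at), read 6.96, 7.01 and 7.26 in the Sage overexpression samples, against 5.86, 5.82 and 6.12 in wild type. The lowest Sage value was above the highest wild type value, and the gap between the groups was wider than the range within either. The means were 7.08 ± 0.16 in Sage overexpression and 5.93 ± 0.16 in wild type (SD, n = 3 each). The log2 difference of 1.14 (SE 0.13, 95% interval 0.84 to 1.45) had a limma adjusted p of 0.0057. On the linear scale this is 2.21-fold, with an interval from 1.79-fold to 2.73-fold. The call held in each fit that left out 1 array, with limma adjusted p-values between 0.0061 and 0.034 and log2 differences between 1.05 and 1.24. It was lost in limma's test against a minimum log2 change of 0.58 (adjusted p 0.14).

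betaTry, a trypsin gene of the same cluster (1630320_at), read 5.85, 6.43 and 6.10 in Sage overexpression, against 5.74, 5.60 and 5.41 in wild type. The groups did not overlap, but the lowest Sage value was only just above the highest wild type value. The log2 difference was 0.55 (SE 0.17, 95% interval 0.15 to 0.95), with an unadjusted p of 0.015 and a limma adjusted p of 0.12. It thus failed the correction over all probe sets, although all 3 Sage samples were on the same side.

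epsilonTry lies between alphaTry and betaTry on the chromosome. Its probe set (1637492_at) read 5.77, 6.08 and 5.86 in Sage overexpression, against 5.99, 5.70 and 5.92 in wild type. The groups overlapped fully. The log2 difference was 0.03 (95% interval -0.27 to 0.32, limma adjusted p 0.94), so the interval holds neither a rise nor a fall of the size seen for alphaTry.

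zetaTry was the most variable of the 6 (1635815_at), with 5.36, 6.02 and 6.48 in Sage overexpression, against 6.13, 5.78 and 5.78 in wild type. The Sage samples spanned the whole wild type range on both sides. The SD was 0.56 in the Sage group and 0.20 in wild type. The log2 difference of 0.05 therefore had a wide 95% interval, -0.62 to 0.73 (limma adjusted p 0.95).

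thetaTry (1623165_at) and iotaTry (1632540_at) were dim. A set of 70 control probe sets, which were taken not to match any fly RNA, had group means between 3.23 and 5.35, and both genes had means inside that range in both groups. thetaTry read 4.94, 5.12 and 5.01 in Sage overexpression, against 4.86, 5.10 and 5.03 in wild type. iotaTry read 4.55, 5.04 and 4.74 in Sage overexpression, against 4.54, 4.66 and 4.28 in wild type. Values overlapped between the groups for both genes, with limma adjusted p-values of 0.93 and 0.39. These arrays cannot show whether either gene was transcribed at these stages, and no fold is given for them. The wild type means of the other 4 genes lay between 0.23 and 0.58 log2 units above the highest control mean, so their starting levels were low as well, alphaTry included. Levels of different probe sets are not used to rank genes by their amount of RNA.

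**Figure D1:**
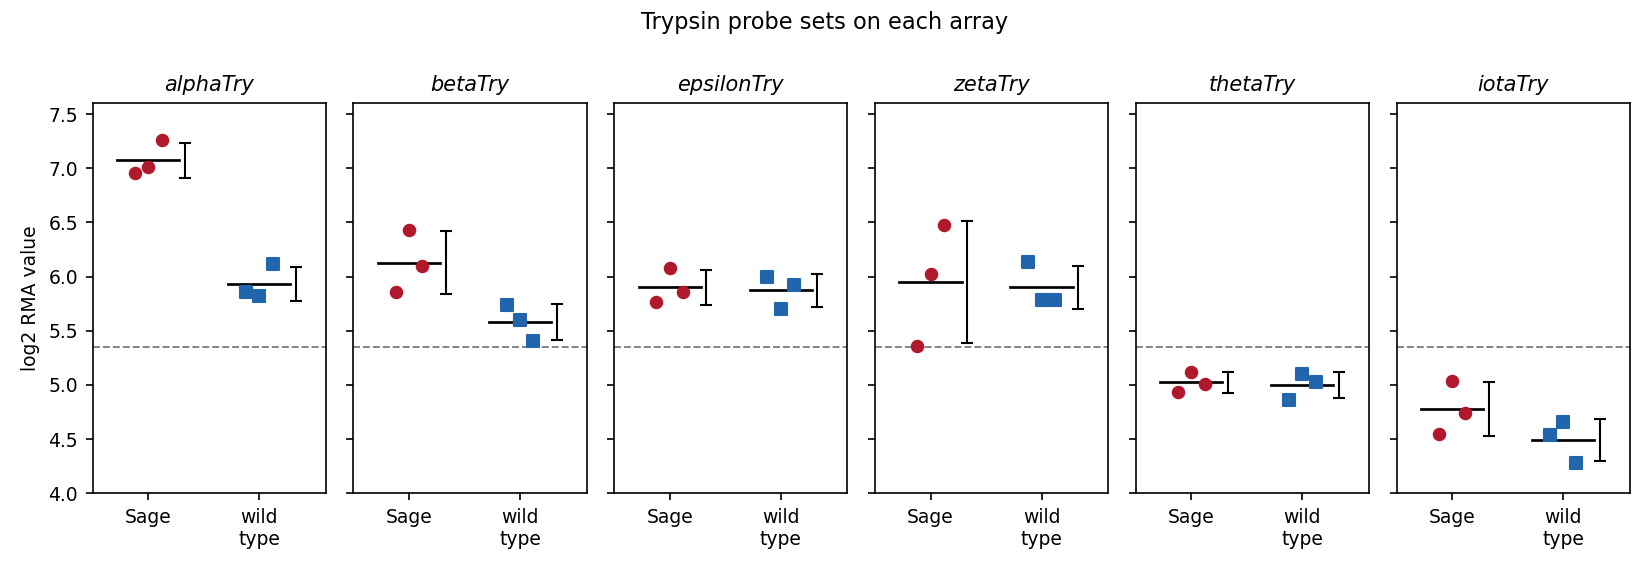
Log2 RMA values of the 6 trypsin probe sets on each array, with Sage overexpression (circles) left of wild type (squares); horizontal lines are group means, bars beside them the SD of 3 samples, and the dashed line the highest group mean among the 70 controls described above, 5.35. The groups are apart for alphaTry and just apart for betaTry, they overlap for the other 4 genes, and thetaTry and iotaTry stay under the dashed line.

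The count of 1 trypsin called higher out of 6, and 0 called lower, stands beside 3.24% of all 18769 probe sets called higher and 2.88% called lower by the same limma test. At an unadjusted p under 0.05, alphaTry and betaTry were higher, and none of the 6 was lower, where 10.3% of all probe sets were higher and 10.8% lower by that measure. Groups did not overlap for 2 of the 6, alphaTry and betaTry, both with Sage above wild type, where 27.6% of all probe sets did not overlap in either direction and 14% had Sage above wild type. All 6 differences were positive, where 9408 of 18769 probe sets had a positive difference. Of the 6, 3 were between 0.03 and 0.05 (epsilonTry, zetaTry and thetaTry), and these changed sign in some alternative fits. The median of the 6 was 0.17, against 0.00053 over all tested probe sets, and it takes in thetaTry and iotaTry, which read within the control range. With 6 members these shares describe the genes and do not set the family apart from other probe sets.

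Since alphaTry was the one called, its value was set against the mean of the other 5 trypsins on the same array, a contrast chosen after the values were seen. This gap was 1.66, 1.27 and 1.62 log2 units in the Sage samples, against 0.41, 0.45 and 0.83 in wild type. The groups did not overlap, and the gap was wider in the Sage samples by 0.96. Because alphaTry was picked for its own difference, this gap largely restates that difference and adds no support to it. The mean of the other 5 also takes in thetaTry and iotaTry, which read within the control range. An exact permutation test over the samples, two-sided, gave a p of 0.1, which is the lowest value open to 3 samples against 3, so the contrast could not pass a threshold of 0.05. The mean over all 6 trypsins was 5.57, 5.95 and 5.91 in Sage overexpression, against 5.52, 5.44 and 5.42 in wild type. Sage sample 1 was thus close to the wild type samples in this mean, and the other Sage samples stood apart from them.

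The members did not vary together in a uniform way within the groups. Across the 6 arrays, after each group's mean was subtracted, the 15 pairwise Pearson correlations ran from -0.40 (alphaTry with iotaTry) to 0.91 (betaTry with iotaTry). betaTry and iotaTry both had their highest value in Sage sample 2 and their lowest in wild type sample 3. alphaTry had its highest value of each group in sample 3. These correlations describe 6 arrays that share normalization, and iotaTry is near the level of the controls.

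The 6 trypsins belong to a run of genes on chromosome arm 2R. In the gene order of the Release 6 annotation, 14 genes lie between the first and the last trypsin gene of the run, both included, and 13 of them are trypsin genes. CG13202, between deltaTry and iotaTry, is the exception. Of the 13, 9 had a probe set of their own, and gammaTry, CG30031, CG30025 and deltaTry were not analysed here. These 4 genes are near copies of each other and resemble alphaTry, and probe sequences were not used here, so how much of the alphaTry signal could come from related transcripts was not tested.

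The largest difference in the run was that of lambdaTry, the trypsin gene at the far end of the run from iotaTry (1630241_at), which is not among the 6. It read 9.79, 9.88 and 10.34 in Sage overexpression, against 8.21, 8.14 and 8.28 in wild type. The groups were far apart, and the gene rose 3.48-fold (log2 difference 1.80, SE 0.16, limma adjusted p 0.0025). Its call held in each fit that left out 1 array, with limma adjusted p-values up to 0.018. Unlike the 6 trypsins, it was well above the control range in wild type, by 2.86 log2 units.

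The 2 genes of the run that were called are not neighbours. Between lambdaTry and alphaTry lie kappaTry, zetaTry, etaTry and thetaTry, and none of these was called. kappaTry read 5.90, 6.13 and 6.60 in Sage overexpression, against 5.79, 6.03 and 6.30 in wild type, and the groups overlapped (log2 difference 0.17, 95% interval -0.34 to 0.68, limma adjusted p 0.74). etaTry was within the control range in both groups, with means of 5.16 in Sage overexpression and 5.03 in wild type (limma adjusted p 0.74). On the other side of alphaTry, epsilonTry was not called either.

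Try29F, a trypsin gene on arm 2L (1636611_at), read 9.27, 10.08 and 10.58 in Sage overexpression, against 8.84, 7.95 and 8.65 in wild type. The groups did not overlap. The log2 difference was 1.50 (SE 0.37, 95% interval 0.60 to 2.40), larger than that of alphaTry but with more spread, and its limma adjusted p of 0.072 missed the threshold. With the replicate number as a block it passed (limma adjusted p 0.044). Without Sage sample 2 or 3 the adjusted p was 0.21 and 0.22.

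**Figure D2:**
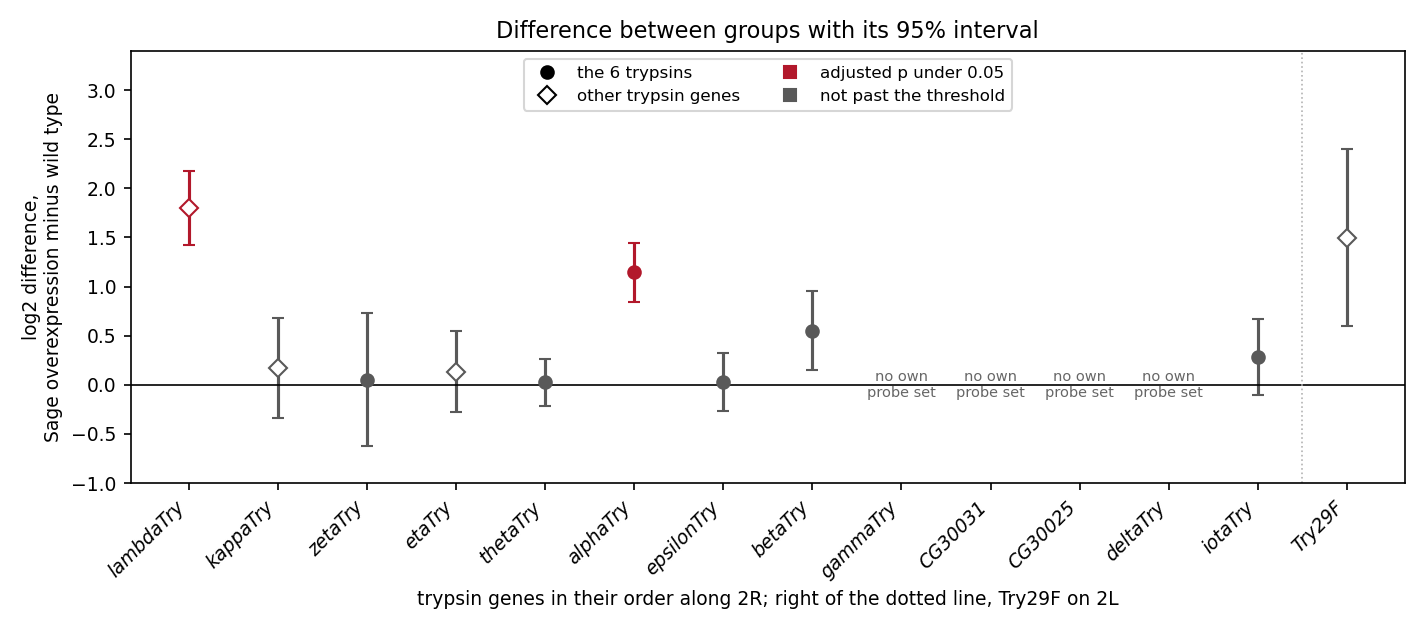
Log2 difference, Sage overexpression minus wild type, with its 95% interval from limma, for trypsin genes in their order along arm 2R and for Try29F on arm 2L; filled circles are the 6 trypsins, open diamonds other trypsin genes, and red marks an adjusted p under 0.05. lambdaTry (1.80) and alphaTry (1.14) are called, and the genes between them have intervals that include 0.

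Other digestive enzymes were set beside the trypsins from lists of genes, with the brightest probe set of each gene. By this count 4.31% of 11983 genes were called higher and 3.49% lower, with 12.7% higher and 13.4% lower where the p was unadjusted, and the median log2 difference of all genes was -0.0063. Of 4 other trypsin genes with a probe set, 1 was called higher (lambdaTry) and 0 lower, and 2 with the replicate block. Of 14 Jonah proteases, chymotrypsin-like enzymes of the gut, 0 were called higher and 1 lower in limma, with a median of 0.06, and 4 higher and 3 lower had an unadjusted p under 0.05. That gene, Jon44E, had a mean of 4.83 in Sage overexpression, within the control range, against 7.94 in wild type (limma adjusted p 0.0035). The Jonah count was 3 lower without wild type sample 2 and 2 lower with the replicate block.

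Of 14 genes listed as zinc carboxypeptidases, which trim amino acids from peptide ends, 1 was called higher and 0 lower, with a median of 0.07. It was CG7025, with means of 5.83 in Sage overexpression and 4.52, within the control range, in wild type (limma adjusted p 0.031). It was not called without Sage sample 1 or 3 or wild type sample 1 or 3 (limma adjusted p 0.069 to 0.12), and without wild type sample 1 another gene of the list was called lower. With the replicate block 3 were higher and 1 lower. Of 14 acid proteases 1 was higher and 1 lower, with a median of 0.04, and 3 were higher and 2 lower where the p was unadjusted. CG17134 had means of 8.98 in Sage overexpression and 4.53, within the control range, in wild type (limma adjusted p 1.1e-05). cathD, the lysosomal protease cathepsin D, fell to 9.92 in Sage overexpression, against 11.10 in wild type (limma adjusted p 0.0070, and 0.050 and not called without Sage sample 3).

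Of 17 genes for the digestion of sugars and fats 1 was higher and 0 lower, with a median of -0.0016. It was Mal-B1, a maltase, which rose 5.76-fold, with 8.68, 8.26 and 8.43 in Sage overexpression, against 5.45, 5.93 and 6.43 in wild type (limma adjusted p 0.0042). The count of that list was 3 higher without wild type sample 2 and with the replicate block, and without wild type sample 1 it was 1 higher and 1 lower. Of 3 lysozymes LysP was called higher and 0 were lower, but both of its means, 4.29 in Sage overexpression and 3.65 in wild type, were in the control range. LysP was not called without Sage sample 1 or 2 (limma adjusted p 0.070 in both). The digestive lists thus had 1 or a few called genes each, and their medians stood near 0 except for the other trypsins, with 0.83, and the lysozymes, with 0.36. The 4 other trypsins were split, with 0.13, 0.17, 1.50 and 1.80, so their median does not describe a shared rise. Of the 3 lysozymes 2 had both means in the control range. At an unadjusted p under 0.05, each digestive list had more genes higher than lower, some by small margins. The counts, higher and lower, were 2 and 0 for the other trypsins, 4 and 3 for the Jonah proteases and 3 and 2 for the acid proteases. Zinc carboxypeptidases had 5 and 1, sugar and fat genes 5 and 2, and lysozymes 1 and 0. Of all genes 12.7% were higher and 13.4% lower, and the lists were chosen with earlier results known.

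Proteases with the same fold but other roles, in body patterning and immunity, had 0 of 11 called in limma (at an unadjusted p under 0.05, 0 higher and 1 lower). easter (ea), which acts in dorsal-ventral patterning, had the smallest p, with means of 6.07 in Sage overexpression and 6.71 in wild type (limma adjusted p 0.13). Without wild type sample 1, 1 gene of this list was called lower. Of 27 serpins, the family that holds inhibitors of such proteases, 0 were higher and 1 was lower. It was Spn47C, whose means of 4.02 in Sage overexpression and 4.62 in wild type were both in the control range, and whose call was lost without wild type sample 1 or any one Sage sample (limma adjusted p 0.070 to 0.12). With the replicate block 4 serpins were lower, as was the case without wild type sample 2, and 2 were lower without wild type sample 3.

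**Figure D3:**
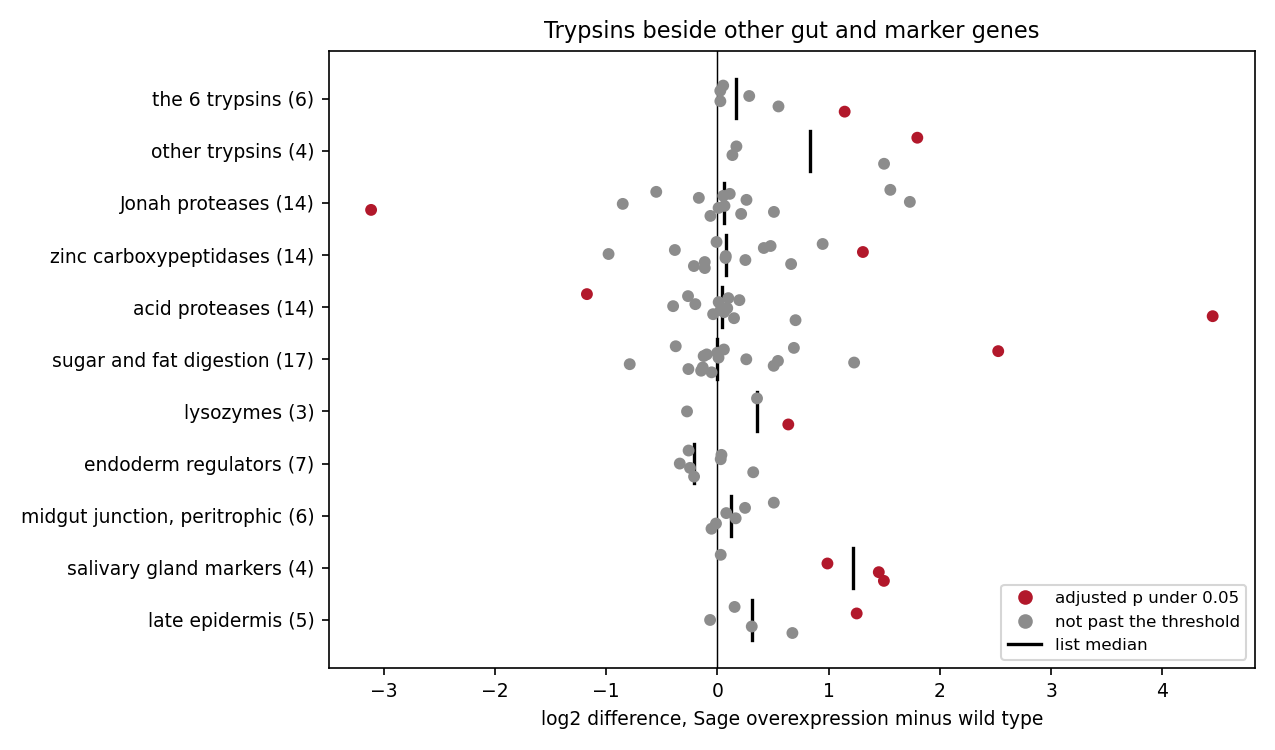
Log2 difference, Sage overexpression minus wild type, for each gene of 11 lists (number of measured genes in brackets), with red for an adjusted p under 0.05 and a black line for the list median. Among the 6 trypsins alphaTry is the one called gene, at 1.14, and the endoderm regulators have none.

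The arrays were from whole embryos, so a difference in the number of midgut cells and one in the RNA per cell cannot be told apart, and no value here places trypsin RNA in the midgut. Midgut genes were measured for comparison. Of 7 endoderm regulators 0 were called in limma, also 0 at an unadjusted p under 0.05, with a median of -0.21. Of the 7 differences 3 were positive. Among these were fkh, which is also in the salivary gland list below, and GATAe, a GATA factor of the endoderm. GATAe had means of 9.72 in Sage overexpression and 9.40 in wild type. srp, another GATA factor of the endoderm and of blood cells and fat body, had 8.62 in Sage overexpression and 8.87 in wild type. All 7 had both means above the control range. Summed over the list on the linear scale, levels ran from 2370 to 2848 in Sage overexpression and from 1870 to 3585 in wild type, so the groups overlapped. The brightest probe sets weigh most in such sums. Without wild type sample 2, 2 of these genes were called lower, and 3 were lower with array weights.

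Of 6 genes for the midgut's smooth septate junctions and the peritrophic matrix, 0 were called in limma (at an unadjusted p under 0.05, 1 higher and 0 lower), and 1 was higher with the replicate block. mesh, a junction protein, had means of 10.52 in Sage overexpression and 10.02 in wild type (log2 difference 0.51, limma adjusted p 0.12). A second, dim mesh probe set had a log2 difference of 0.12. The summed linear level ran from 5620 to 6684 in Sage overexpression and from 4965 to 5562 in wild type. These ranges did not overlap, and their part in the trypsin difference was not tested. Peritrophin-15a and Peritrophin-15b, which are peritrophic matrix proteins of the gut, were within the control range in both groups, like thetaTry and iotaTry.

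Of 4 salivary gland genes other than sage, 3 were called higher (PH4alphaSG1, PH4alphaSG2 and Papss), and fkh was not called. The summed linear level ran from 5680 to 6868 in Sage overexpression and from 2449 to 3445 in wild type. Leaving out 1 array reduced this count to 2 without Sage sample 1, wild type sample 1 or wild type sample 3, to 1 without Sage sample 2 and to 0 without Sage sample 3. Without Sage sample 3 the log2 differences were 1.01 for Papss, 1.51 for PH4alphaSG1 and 1.53 for PH4alphaSG2, against 0.99, 1.50 and 1.45 with all arrays. Of 5 genes of the late epidermis 1 was called higher, Edg91, with means of 6.76 in Sage overexpression and 5.51 in wild type (limma adjusted p 0.010, and 0.055 without Sage sample 2). The summed linear level of this list ran from 296 to 443 in Sage overexpression and from 202 to 255 in wild type. Whether gland RNA or the age of the embryos had a part in the alphaTry difference was not tested.

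The profile of the 6 trypsins, as their mean log2 value on each array, was compared with 2564 other genes whose values span at least 1 log2 unit, trypsins and Jonah proteases left out. The highest Pearson correlations over the 6 arrays were those of CG4229 (0.993), CG13033 (0.992), Cln3 (0.992), CG15515 (0.990), CG11911 (0.968) and CG13445 (0.963). CG4229 read 7.83, 9.06 and 8.97 in Sage overexpression, against 7.45, 7.10 and 6.95 in wild type. Like the trypsin mean, it was lower in Sage sample 1 than in the other Sage samples. That mean gives equal weight to thetaTry and iotaTry, which read within the control range, and to zetaTry, the most variable of the trypsins. zetaTry read 5.36, 6.02 and 6.48 in Sage samples 1, 2 and 3, where alphaTry, the called trypsin, read 6.96, 7.01 and 7.26. Cln3, which encodes a membrane protein of lysosomes, read 5.28, 6.09 and 6.09 in Sage overexpression, against 4.96, 4.88 and 4.87 in wild type. Of these 6 genes CG13445 was called higher, with a limma adjusted p of 0.044, and the other 5 were not. CG4229 and Cln3 were called higher too with the replicate block (limma adjusted p 0.048 and 0.042), with array weights (0.015 and 0.012), with trended and robust eBayes (0.038 and 0.040) and without Sage sample 1 (0.014 and 0.0089), and CG4229 with dim probe sets left out (0.045). CG15515 was called with array weights (0.022) and, like CG13033, without Sage sample 1 (0.023 and 0.029). CG13445 was not called with quantile normalization or when any of 4 arrays was left out, Sage sample 2 or 3 or wild type sample 1 or 3 (limma adjusted p 0.057 to 0.18). The 6 arrays share their normalization, and these correlations are given as a description.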

How the data were processed

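Biotin-labelled RNA of 6 whole-embryo samples was hybridised to 1 Affymetrix array each. Per the submitters' processing notes, the authors used RMA and Partek, with no versions or settings given. The deposited table was taken to hold log2 values because RMA gives that scale, and because they run from 2.90 to 14.6 with a mean of 6.36 on every array. RMA makes the arrays' distributions alike, so a change in total RNA would not show. The table has 18952 probe sets. Of these, 183 are array controls and were not tested. The platform annotation pairs 13647 probe sets with 1 gene and 402 with several, and the Release 6 gene table held the gene numbers of 13544 of the 13647. No detection calls were used, and the number of arrays limits the precision.

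Sage overexpression was compared with wild type using limma 3.58.1 in R 4.3.3 (lmFit, eBayes), two-sided, with Benjamini-Hochberg adjustment over all 18769 probe sets at 0.05. Differences are Sage overexpression minus wild type. Members, lists, controls and tests were chosen with earlier results of these data known. The 6 trypsins, sage and every other trypsin gene with a probe set were named, with up to 4 called genes of each list, or the gene with the smallest p, and the 6 genes of most similar profile. GATAe, srp, fkh, the Peritrophin genes, CG13202, Spn42Da, Spn42Dc, Spn42Dd and Spn42De were named after their values were seen. On simulated data for this comparison over 18769 probe sets, 20%, 66%, 92% and 98% of 50 probe sets each, changed by 0.5, 1, 2 and 4 on the log2 scale, were recovered, and 6 of 144 calls were false. The simulated noise was independent for each probe set and array, unlike the deviations shared between samples that are given below. These rates may therefore not hold for the real arrays.

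The labels give replicate numbers 1 to 3 in both groups without saying what they share. Over all tested probe sets, same-numbered samples deviated from their group means with correlations of 0.39 for number 1, 0.67 for number 2 and 0.33 for number 3, so the numbers were treated as pairs in the fit with the replicate block. Wild type 3 with Sage 1 reached 0.43, so the pairing of 1 and 3 is not settled. Alternatives were median centring, quantile normalization, dim probe sets left out, array weights, a trended and robust eBayes, the replicate block, 1 probe set per gene, a threshold of 0.01, limma's treat against a log2 change of at least 0.58, and each array left out. A fit without the samples numbered 2 was added after the data were seen. Plots used matplotlib 3.10.9 and pandas 2.3.3 under Python 3.11.15.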

Additional observations from a re-analysis of the deposited data

How the results depend on the processing

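The call of alphaTry, and so the count of 1 of the 6 trypsins, held in 15 of 16 alternatives, with log2 differences between 1.05 and 1.26. It was lost in the test against a minimum log2 fold of 0.58 (adjusted p 0.14), where the count was 0. That test asks whether a change lies beyond 0.58, with adjustment over all probe sets. The alphaTry difference of 1.14 was above 0.58 but did not pass that adjustment. The count was 1 in every fit that left out 1 array. With the replicate block it was 1 too (alphaTry adjusted p 0.0028), and no trypsin other than Try29F, given above, changed its call in that fit. betaTry was called in none of the 16 (adjusted p from 0.052, with array weights, upward), and iotaTry stayed positive in the 15 that tested it. Differences near 0 changed sign without being called. For epsilonTry this was -0.012 with median centring, -0.10 with array weights, -0.15 without both samples numbered 2, and between -0.062 and 0.094 with 1 array left out. zetaTry read -0.041 without both samples numbered 2 and between -0.21 and 0.35 with 1 array left out. thetaTry read -0.012 with median centring, -0.0046 with quantile normalization and between -0.041 and 0.077 with 1 array left out. etaTry lay between -0.023 and 0.225, and kappaTry between -0.026 and 0.324, with 1 array left out. Try29F was also called with array weights (adjusted p 0.017).

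Of all probe sets, 1149 were called (608 higher and 541 lower), against 3986 with array weights, 2191 with the replicate block (1077 higher and 1114 lower), 349 at a threshold of 0.01 (231 higher and 118 lower), 158 with the minimum fold (120 higher and 38 lower), and 335 to 1857 with 1 array left out. Median centring moved the median difference of all probe sets to -0.04.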

Other observations

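Marker genes of tissues around or near the midgut were not called in the limma fit of all arrays. Of 6 visceral mesoderm markers, genes of the layer that becomes the gut muscle, 0 were called (at an unadjusted p under 0.05, 0 higher and 3 lower, where 13.4% of 11983 genes were lower), and 4 were lower with array weights. The gene with the smallest p was bap, a homeobox factor of that layer, with means of 7.03 in Sage overexpression and 7.40 in wild type (limma adjusted p 0.051). The summed linear level of the list ran from 587 to 625 in Sage overexpression and from 760 to 1004 in wild type.

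Of 5 hindgut and Malpighian tubule markers 0 were called (at an unadjusted p under 0.05, 0 higher and 3 lower, against the same 13.4% of genes), and all 5 differences were negative, with a median of -0.37. The count was 3 lower without wild type sample 2 or with array weights. It was 1 lower with median centring, quantile normalization, dim probe sets left out, trended and robust eBayes, 1 probe set per gene or the replicate block, and without wild type sample 3 or both samples numbered 2. Irk3, a potassium channel gene, had means of 5.59 in Sage overexpression and 6.45 in wild type (limma adjusted p 0.054). Of 4 fat body markers 0 were called (at an unadjusted p under 0.05, 1 higher and 0 lower). Lsp2, a larval serum protein, had the smallest p, with means of 5.55 in Sage overexpression and 5.28 in wild type (limma adjusted p 0.12). Of 6 segmentation genes active in earlier embryos 0 were called (at an unadjusted p under 0.05, 0 higher and 1 lower), and 1 was lower with the replicate block. hb had the smallest p, with means of 6.16 in Sage overexpression and 7.43 in wild type (limma adjusted p 0.13).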
